A study of Sus scrofa with 23 samples.

Results

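The genes described here carry the symbols of the translation initiation factors (EIF) and elongation factors (EEF), and encode those factors and a few proteins that act on them, as measured in pig bone marrow-derived macrophages exposed to lipopolysaccharide (LPS). Members were all genes whose symbol starts with EIF or EEF followed by a digit, taken from probe sets annotated to 1 gene, without the Y-linked EIF1AY. This gave 41 genes of 6765 named genes, and each gene is given by its brightest probe set on average. The 41 genes had 63 probe sets between them, and 16 genes had more than 1. A further 6 probe sets, which list EIF2S3, EIF3G or EIF4EBP3 together with another gene, were left out. EIF4EBP1, EEF2 and EEF2K were not analysed here. No sequence is shown, because no table used here held one for these genes.

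Bone marrow from 3 Large White x Landrace F1 pigs, of which pigs 1 and 3 are labelled male and pig 2 female, was grown into macrophages for 5 to 7 days with recombinant human CSF1. Cells were then given 100 ng/ml LPS from Salmonella enterica serotype minnesota Re 595. RNA was collected at 0, 2, 7 and 24 h from duplicate cultures of each pig, with a single culture of pig 3 at 24 h, and hybridized to 23 arrays. The labels give no age for the animals, and the 0 h cultures are the untreated group.

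The time labels and the arrays disagree, and every result below depends on how that is handled. EIF1AY, used as a check of sex, was bright on 15 arrays (log2 intensity of at least 8.16) and dim on 8 (at most 4.08). This fitted the labelled sex on 15 of 23 arrays. Of 22 arrays with a labelled duplicate, 0 had that duplicate as the most similar array. The members were therefore compared by the order of the columns in the deposited table, which takes columns 1 to 6 as 0 h, columns 7 to 12 as 2 h, columns 13 to 18 as 7 h and columns 19 to 23 as 24 h, with neighbouring columns as duplicates of 1 animal. That order was inferred from the values of these same arrays and is not recorded in the labels. In it, EIF1AY fitted the sex of the animal on 23 of 23 arrays, and the neighbouring column was the most similar array for 22 of 22. Both facts are part of what the order was chosen for, so neither they nor any p-value below can support it. The label and the order give the same time on only 2, 1, 1 and 1 arrays at 0, 2, 7 and 24 h. In what follows, "the 7 h columns" means columns 13 to 18, and likewise for the other times. With the times and pigs as labelled, limma called 0 of the 41 members in every comparison and 0% of all genes over the 4 times. At an unadjusted p under 0.05 that labelled fit gave 0, 3 and 1 members at 2, 7 and 24 h against 0 h. It gave 2 between 2 h and 7 h, 0 between 7 h and 24 h, and 2 by the F test.

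Initiation begins when EIF2, loaded with GTP and the initiator tRNA, joins the small ribosomal subunit with EIF1, EIF1A and the many-subunit EIF3. The EIF4 factors bind the cap of the mRNA, unwind its leader and bring it to that subunit, and EIF5B joins the large subunit. EIF2B recharges EIF2 with GTP, and kinases such as EIF2AK2 (PKR, an interferon-inducible sensor of double-stranded RNA) block that step by phosphorylating EIF2. The EEF1 factors then deliver aminoacyl-tRNA to the ribosome during elongation. Macrophages are known to control translation of inflammatory mRNAs through EIF2 and EIF4E.

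By column order, most of these genes were lower in the 7 h and 24 h columns than in the 0 h columns, and 1 gene, EIF2AK2, was much higher. Values are log2 intensity, differences are later minus earlier on that scale, and a gene was called at a Benjamini-Hochberg adjusted p under 0.05 over 23999 probe sets (limma, 12 animal-by-time means). At 7 h, 27 of 41 members fell and 1 rose, where 34.0% of all 6765 genes fell and 17.5% rose. At 24 h, 25 members fell and 3 rose, where 28.3% of genes fell and 18.4% rose. The median difference of the members was -0.32 at 7 h and -0.31 at 24 h, against -0.06 and -0.03 over all genes. At 2 h the median was -0.05, with 1 member called higher (5.17% of genes) and 1 called lower (9.19% of genes). From 2 h to 7 h, 18 members fell and 1 rose, where 22.7% of genes fell and 14.7% rose. From 7 h to 24 h the members split, with 9 higher and 7 lower, where 19.5% of genes rose and 14.7% fell. That split was not stable: it was 4 higher and 3 lower without animal 1, 7 and 2 without animal 2, 3 and 5 without animal 3, and 3 and 7 without column 23. The 3 rises at 24 h against 0 h became 1 without animal 1 or animal 3. Over all times the limma F test called 33 of 41 members, 80.5%, against 64.4% of genes. Whether the share of members differed from that of all genes was not tested.

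**Figure D1:**
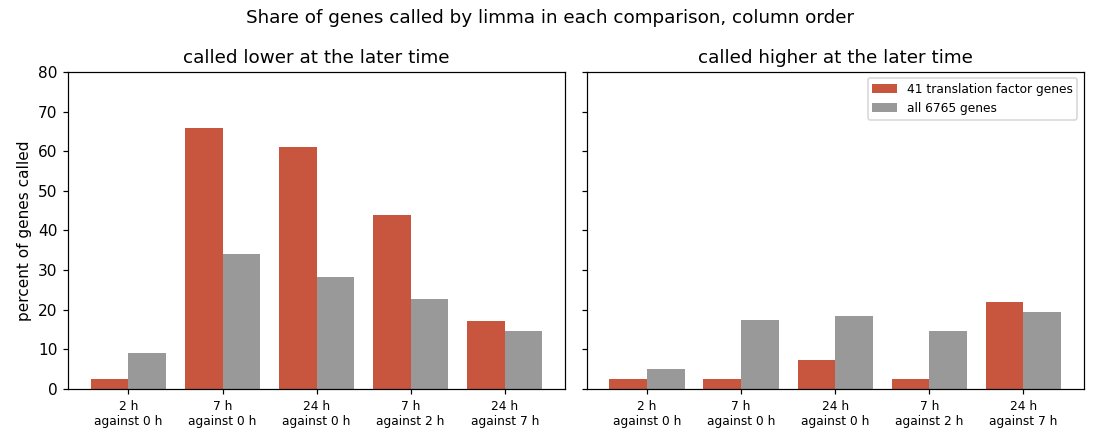
Percent of the 41 translation factor genes and of all 6765 genes called lower (left) or higher (right) at the later time in each of 5 comparisons by column order, at a limma adjusted p under 0.05. Lower calls stand at 65.9% of the members at 7 h against 0 h and 61.0% at 24 h, beside 34.0% and 28.3% of all genes, and higher calls at 2.44% and 7.32% beside 17.5% and 18.4%.

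By the brightest probe set, 2 members changed by 2-fold or more at 7 h against 0 h (4.88%, against 867 genes of all 6765) and 2 at 24 h (4.88%, against 744 genes). Counting any probe set of a gene, a choice made after the values were seen, 4 members did at 7 h (EIF1AX, EIF2AK2, EIF2B3 and EIF4EBP2). At 24 h 6 did (EIF1AX, EIF2AK2, EIF3B, EIF4B, EIF4EBP2 and EIF5B). The count by any probe set was not made over all genes, so it has no share to stand beside. Brightest probe sets spanned a median of 0.92 per member from the lowest to the highest array, beside 0.96 over all genes. The range over the members was from 0.26 for EEF1A1 to 3.03 for EIF2AK2. All 28 members called at 7 h against 0 h, and all 28 called at 24 h, moved the same way in each of the 3 animals. The fit favours calls on which the animals agree, so this is not separate evidence. The share of all called genes that did so was not counted. Of the called members, 25 at 7 h (89.3%) and 24 at 24 h (85.7%) had array values that did not overlap the 0 h columns. So did 76.7% and 74.2% of all genes called in those comparisons. Neighbouring duplicate columns differed by a median of 0.06 over the members, and by under 0.20 for 95% of the values. For labelled duplicates the median was 0.19. The order was inferred from array similarity, so close neighbours are part of how it was chosen.

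Against the 0 h columns and by the brightest probe set, 22 members fell at both 7 h and 24 h. The share of all genes that fell at both times was not counted. EIF1B, EIF2B1 and EIF4EBP2 fell at 7 h alone among these comparisons, and EIF3L, EIF4G1 and EIF4G3 at 24 h alone. Other EIF4EBP2 probe sets were called lower at 24 h too. EIF2B2 fell at 2 h and 7 h, EIF4A2 fell at 7 h and rose at 24 h, EIF2S2 rose at 24 h, and EIF2AK2 rose at each time. The other 9 members, EEF1A1, EIF1, EIF2A, EIF2S1, EIF3E, EIF3H, EIF3M, EIF4H and EIF6, were not called against 0 h at any time. The counts depended on each animal. Of 28 calls at 7 h, the fit without animal 3 made 18, and of 28 at 24 h, the fits without animal 2 and without animal 3 each made 18. For 24 h against 7 h the full fit made 16 calls. The fits without animals 1, 2 and 3 made 7, 9 and 8 in total, and that without column 23 made 10. Not all of these were among the 16. Without animal 2, 6 of its 7 higher calls were, and without column 23, 5 of its 7 lower calls were. Of 2 calls at 2 h, the same 3 fits without an animal made 1, 0 and 0. The comparisons with 0 h share the 0 h columns, so their members' falls are not separate evidence.

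**Figure D2:**
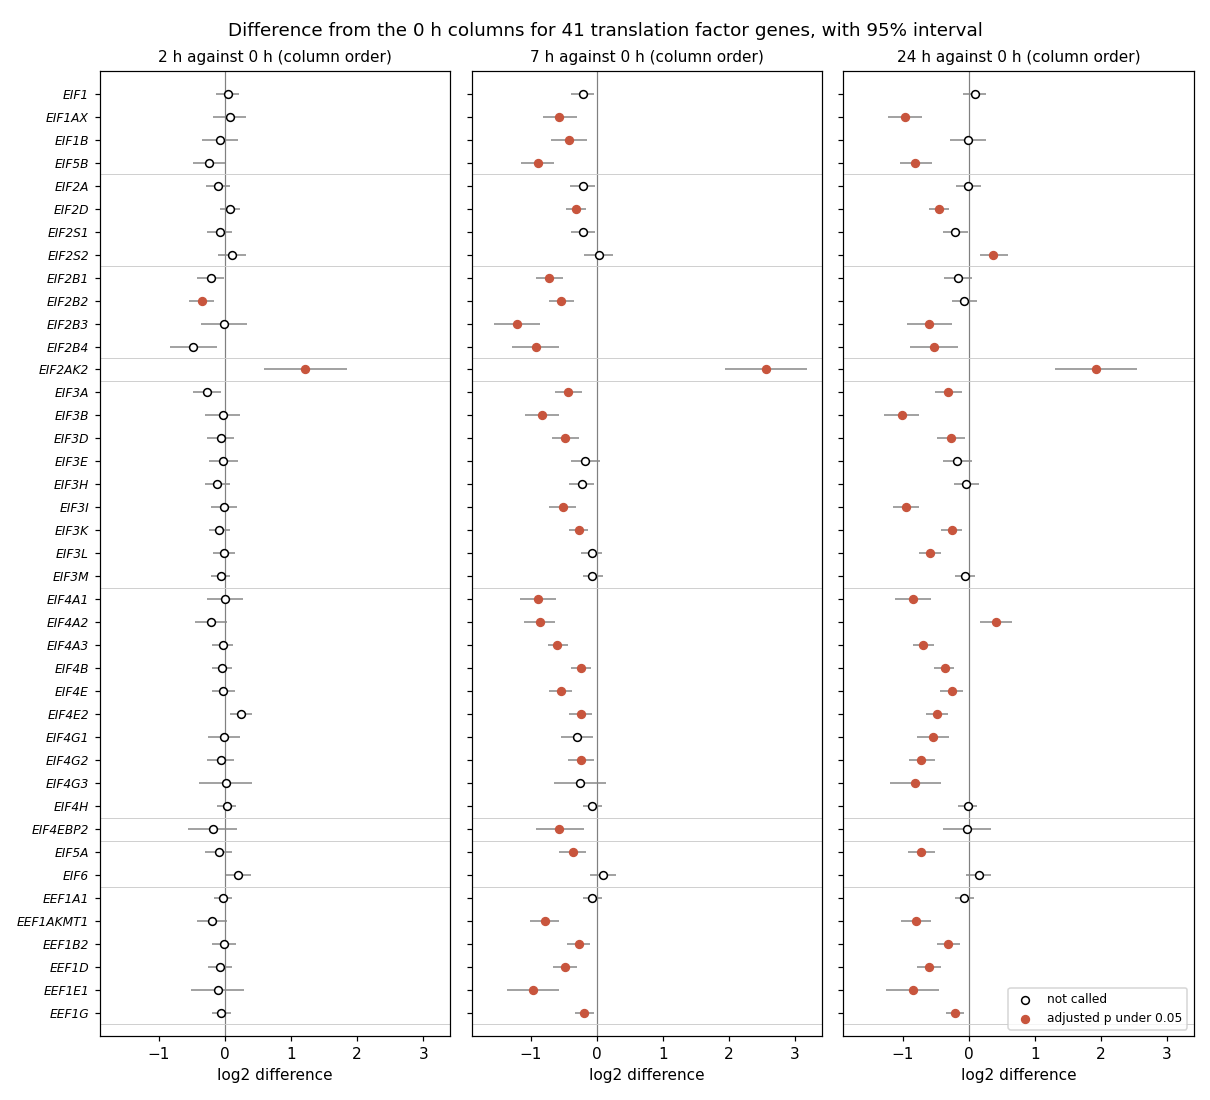
Log2 difference from the 0 h columns for each of the 41 members at 2, 7 and 24 h by column order, with its 95% confidence interval (limma). Filled points are called at an adjusted p under 0.05, open points are not, and grey lines part the role groups. Filled points below 0 number 27 at 7 h and 25 at 24 h, and EIF2AK2 stands alone at 2.56 at 7 h.

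EIF2AK2, the kinase PKR, was the only EIF2 kinase measured and the member with the largest change by the brightest probe set. A dimmer probe set of EIF4EBP2 changed by more (-3.13 at 24 h against 0 h). In the 0 h columns its log2 intensity ran from 9.13 to 9.89 with a median of 9.50, and in the 2 h columns from 9.73 to 11.35 with a median of 10.91. It lay between 11.88 and 12.16 in the 7 h columns, with a median of 12.06, and read 11.11, 10.85, 11.63, 11.60 and 11.59 in columns 19 to 23. The 7 h and 24 h columns were all above every 0 h column, whereas the 2 h columns overlapped them. The mean rose from 9.47 ± 0.19 (SD, n = 3 animals) to 12.03 ± 0.12 at 7 h, a difference of 2.56 (SE 0.28, limma adjusted p = 0.000122), or 5.89-fold. At 24 h it was 11.40 ± 0.36, a difference of 1.92 (limma adjusted p = 0.000606). At 2 h the mean of 10.69 ± 0.80 was 1.21 higher (limma adjusted p = 0.0203), and the animals differed widely there. Animal 1 read 9.73 and 9.87 in its 2 h columns, close to its 0 h values, while animals 2 and 3 read 10.88 to 11.35. The 2 h call was lost without animal 2 (difference 1.05) and without animal 3 (0.82). From 7 h to 24 h it changed by -0.64, which was not called (limma adjusted p = 0.134).

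**Figure D3:**
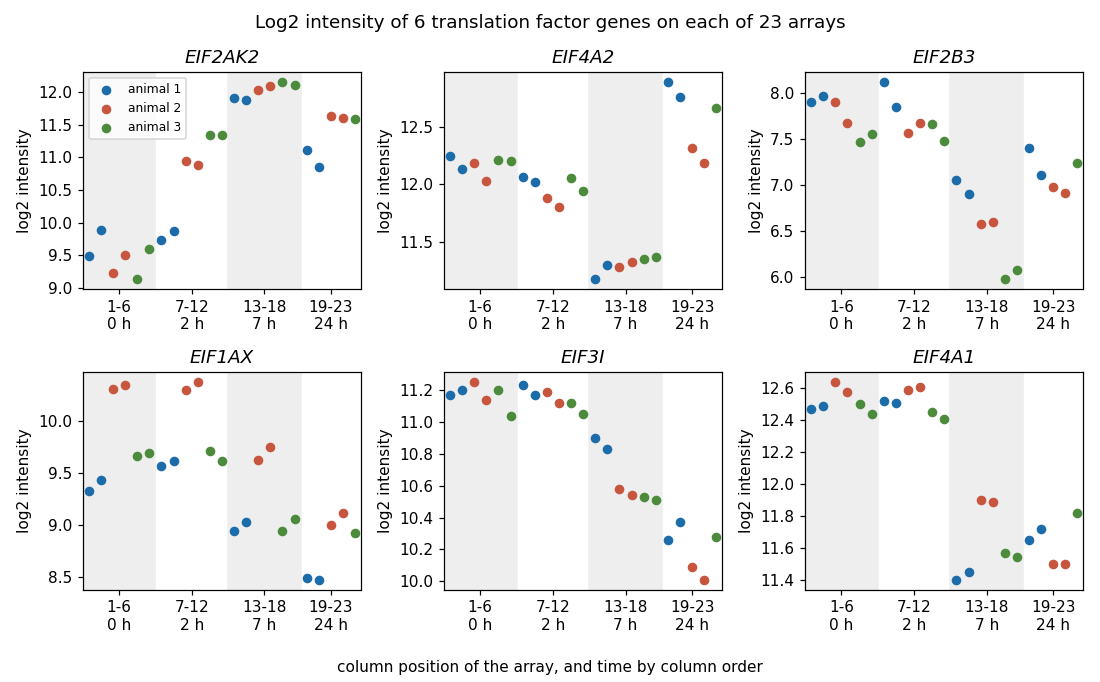
Log2 intensity of EIF2AK2, EIF4A2, EIF2B3, EIF1AX, EIF3I and EIF4A1 on each of the 23 arrays, in column order, with points coloured by the animal of that order and the runs of columns shaded in turn. EIF2AK2 is highest in the 7 h columns (11.88 to 12.16). EIF4A2 is lowest there (11.17 to 11.37) and highest in the 24 h columns (12.18 to 12.89). EIF1AX in animal 2 lies above the other animals at each time, by least at 24 h (0.35 above their mean).

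The subunits of EIF2B, the nucleotide exchange factor on which phosphorylated EIF2 acts, all fell at 7 h (4 of 4 measured, median difference -0.83). Over all genes, the share that fell at 7 h was 34.0%. EIF2B3, the gamma subunit, fell most. Its log2 intensity was 7.46 to 7.97 in the 0 h columns (median 7.79) and 7.48 to 8.12 in the 2 h columns (median 7.66). The 7 h columns ran from 5.97 to 7.05 with a median of 6.59, and columns 19 to 23 read 7.40, 7.11, 6.98, 6.91 and 7.24. All 7 h columns lay below all 0 h and 2 h columns. The difference was -1.21 at 7 h (SE 0.16, limma adjusted p = 0.000265) and -0.60 at 24 h (limma adjusted p = 0.0146), and the rise of 0.62 from 7 h to 24 h was also called (limma adjusted p = 0.0168). EIF2B3 was also the dimmest member, with a mean of 7.29. The 24 h call was lost without animal 1 or 2.

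EIF2B4, the delta subunit, fell from 8.81 ± 0.36 to 7.88 ± 0.25 at 7 h, by 0.93 (limma adjusted p = 0.00128). At 24 h its mean was 8.28 ± 0.42, and that call was lost without animal 2, when the difference was -0.25, and without animal 3. EIF2B1, the alpha subunit, fell from 9.07 ± 0.13 to 8.35 ± 0.18 at 7 h, by 0.72 (limma adjusted p = 0.000271). It then rose by 0.55 to 8.90 ± 0.31 at 24 h (limma adjusted p = 0.00235). EIF2B2, the beta subunit, was the one member called lower at 2 h, by 0.35 (limma adjusted p = 0.0225), from 9.59 ± 0.06 to 9.24 ± 0.09. That call was lost without any 1 of the 3 animals. It was 9.05 ± 0.13 at 7 h and 9.52 ± 0.10 at 24 h, and the rise of 0.47 between them was called (limma adjusted p = 0.00311). From 7 h to 24 h, 3 of the 4 subunits rose, where 19.5% of all genes rose.

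Of the subunits of EIF2 itself and the other carriers of initiator tRNA, 1 of 4 fell at 7 h, and 1 fell and 1 rose at 24 h. Over all genes, 34.0% fell at 7 h, and 28.3% fell and 18.4% rose at 24 h. EIF2S1, the alpha subunit that carries the regulated phosphorylation site, was 11.71 ± 0.07 at 0 h, 11.63 ± 0.07 at 2 h, 11.50 ± 0.12 at 7 h and 11.51 ± 0.08 at 24 h. Its differences of -0.22 at 7 h (95% interval -0.40 to -0.03) and -0.21 at 24 h were not called. EIF2S2, the beta subunit, rose at 24 h by 0.37 (limma adjusted p = 0.0138), from 12.06 ± 0.05 to 12.44 ± 0.17. Columns 19 to 23 read 12.59, 12.57, 12.25, 12.23 and 12.48, all above the 0 h columns, which reached 12.15. That call was lost without animal 1 or 3 and without column 23. EIF2D, which can deliver tRNA without GTP, fell from 7.89 ± 0.09 to 7.57 ± 0.06 at 7 h and 7.44 ± 0.05 at 24 h (differences -0.32 and -0.45). After a further quantile normalization its 7 h difference was -0.18 and was no longer called, nor was it without animal 2 or 3. EIF2A, with a mean of 10.39, was not called in any comparison.

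Of the factors for scanning and start codon choice, 3 of 4 fell at 7 h and 2 of 4 at 24 h. Over all genes, 34.0% fell at 7 h and 28.3% at 24 h. EIF5B, the GTPase that joins the ribosomal subunits, was 10.75 to 10.97 in the 0 h columns (median 10.85) and 9.80 to 10.15 in the 7 h columns (median 9.92). At 24 h the columns read 10.08, 10.08, 9.87, 9.83 and 10.23. No 7 h or 24 h column reached the 0 h range. The differences were -0.90 at 7 h (limma adjusted p = 0.000208) and -0.81 at 24 h (limma adjusted p = 0.000421). EIF1B, a close relative of EIF1, fell by 0.43 at 7 h (limma adjusted p = 0.0205) and stood at 10.97 ± 0.34 at 24 h against 10.99 ± 0.02 at 0 h.

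EIF1AX, the X-linked gene for EIF1A, fell by 0.57 at 7 h (limma adjusted p = 0.00316) and by 0.97 at 24 h (limma adjusted p = 0.000185). Its log2 intensity was 9.32 to 10.34 in the 0 h columns (median 9.67), 9.56 to 10.37 at 2 h (median 9.66) and 8.94 to 9.75 at 7 h (median 9.04). The 5 columns at 24 h ran from 8.47 to 9.11 with a median of 8.92, all below the 0 h columns. The animals stood apart in level. Animal 2, the female by column order, read 10.32 at 0 h where animals 1 and 3 read 9.38 and 9.67. It exceeded the mean of the other animals by 0.79 at 0 h, 0.71 at 2 h, 0.70 at 7 h and 0.35 at 24 h. The second EIF1AX probe set gave 0.71, 0.66 and 0.51 at 0, 2 and 7 h and -0.15 at 24 h. With 1 female this is 1 animal's level and has no test. The second probe set also fell, from 9.61 ± 0.41 at 0 h to 7.58 ± 0.11 at 24 h.

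EIF1, one of the brightest members (mean 13.51), was 13.54 ± 0.02, 13.58 ± 0.06, 13.32 ± 0.01 and 13.63 ± 0.15 over the 4 times. The dip at 7 h was called against 2 h (-0.26, limma adjusted p = 0.0357) and against 24 h (a rise of 0.30, limma adjusted p = 0.0187). Against 0 h it was -0.22 and missed the threshold (limma adjusted p = 0.0508). The other EIF1 probe set was also called lower at 7 h than at 2 h. Against 0 h (10.98 ± 0.03) it was called higher at 2 h, at 11.58 ± 0.14 (limma adjusted p = 0.0211), and at 24 h, at 11.54 ± 0.30 (limma adjusted p = 0.0124). With the mean of a gene's probe sets in place of the brightest, 5 members in place of 3 were called higher at 24 h against 0 h, EIF1 among them.

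EIF3 is the scaffold that holds the small subunit, the other factors and the mRNA together. Of its 9 measured subunits, 5 fell at 7 h and 6 at 24 h, and none rose. Over all genes, 34.0% fell at 7 h and 28.3% at 24 h. EIF3B, a core subunit, was 9.12 to 9.39 in the 0 h columns (median 9.24), 9.10 to 9.26 at 2 h (median 9.22) and 8.17 to 8.70 at 7 h (median 8.37). The 24 h columns ran from 7.96 to 8.43 with a median of 8.25. Every 7 h and 24 h column was below every 0 h and 2 h column. The differences were -0.83 at 7 h (limma adjusted p = 0.000409) and -1.02 at 24 h (SE 0.12, limma adjusted p = 0.000156).

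EIF3I, a WD-repeat subunit bound to EIF3B, went down in steps. It was 11.04 to 11.25 at 0 h (median 11.18), 11.05 to 11.23 at 2 h (median 11.14) and 10.51 to 10.90 at 7 h (median 10.56). At 24 h they read 10.26, 10.37, 10.09, 10.01 and 10.28. The 24 h columns did not overlap the 7 h columns, nor these the 2 h columns. The differences were -0.52 at 7 h (limma adjusted p = 0.00129), -0.95 at 24 h (limma adjusted p = 5.41e-05) and -0.43 between 7 h and 24 h (limma adjusted p = 0.00612).

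EIF3L, a subunit outside the core, fell late. It was 10.94 ± 0.09 at 0 h, 10.92 ± 0.06 at 2 h, 10.86 ± 0.17 at 7 h and 10.35 ± 0.04 at 24 h. Columns 19 to 23 lay between 10.25 and 10.41, below the 7 h columns, which began at 10.70. The change from 7 h to 24 h was -0.51 (limma adjusted p = 0.0012). EIF3A, the largest subunit, fell by 0.44 at 7 h and 0.31 at 24 h, and EIF3K by 0.28 and 0.26. EIF3D, which can itself bind the cap, fell by 0.48 at 7 h and 0.27 at 24 h. Its second, dim probe set (mean 4.71) gave 0.09 and 0.39, and the mean of both sets gave 0.06 at 24 h. The 24 h call of the brighter set (limma adjusted p = 0.0478) was lost without any 1 animal and without column 23. EIF3E, EIF3H and EIF3M were not called, with differences from 0 h between -0.23 and -0.04 at 7 h and 24 h. A second EIF3M probe set, dimmer at a mean of 7.86, fell from 8.29 ± 0.15 at 0 h to 7.66 ± 0.10 at 2 h.

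Among the 10 genes for cap binding and unwinding, 7 fell at 7 h, and 8 fell and 1 rose at 24 h. Over all genes, 34.0% fell at 7 h, and 28.3% fell and 18.4% rose at 24 h. The paralogous helicases EIF4A1 and EIF4A2 parted. EIF4A1 was 12.44 to 12.64 at 0 h (median 12.49), 12.41 to 12.61 at 2 h (median 12.52) and 11.40 to 11.90 at 7 h (median 11.56). The 24 h columns read 11.65, 11.72, 11.50, 11.50 and 11.82. No 7 h or 24 h column reached the range of the earlier ones. The differences were -0.89 at 7 h (limma adjusted p = 0.000384) and -0.85 at 24 h (limma adjusted p = 0.000589).

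EIF4A2 was 12.03 to 12.24 at 0 h (median 12.19), 11.80 to 12.06 at 2 h (median 11.98) and 11.17 to 11.37 at 7 h (median 11.31). In the 24 h columns it read 12.89, 12.76, 12.31, 12.18 and 12.66. The 7 h columns were below all others, and the 24 h columns overlapped the 0 h columns in part. It fell by 0.87 at 7 h (SE 0.11, limma adjusted p = 0.000218) and then rose by 1.28 to 24 h (limma adjusted p = 1e-04). The rise above 0 h was 0.41 (limma adjusted p = 0.0143), and that call was lost without animal 1 (0.29) or animal 3 (0.39). EIF4A3, the helicase of the exon junction complex, fell by 0.60 at 7 h and 0.69 at 24 h, from 10.72 ± 0.09 to 10.12 ± 0.09 and 10.03 ± 0.10.

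EIF4E, the cap-binding protein, was 8.89 ± 0.14 at 0 h, 8.86 ± 0.17 at 2 h, 8.34 ± 0.11 at 7 h and 8.62 ± 0.18 at 24 h. It fell by 0.55 at 7 h (limma adjusted p = 0.000467), with no overlap of the 7 h columns (8.22 to 8.48) and the 0 h columns (8.72 to 9.07). The 24 h difference of -0.26 (limma adjusted p = 0.0272) was called with all animals and lost without any 1 of them. EIF4E2, a cap-binding relative that represses translation, went from 8.42 ± 0.06 at 0 h to 8.66 ± 0.09 at 2 h, 8.17 ± 0.08 at 7 h and 7.93 ± 0.12 at 24 h. Its 2 h difference of 0.24 was not called (limma adjusted p = 0.0681), while a dimmer probe set of the gene was called lower at 2 h. Its -0.25 at 7 h (limma adjusted p = 0.0231) was called with all animals and lost without any 1 of them, and its -0.49 at 24 h was called (limma adjusted p = 0.000801).

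The EIF4G scaffolds, which link EIF4E to EIF4A and EIF3, were lowest at 24 h. EIF4G2, a relative without the EIF4E site, was 13.13 ± 0.11 at 0 h, 13.06 ± 0.03 at 2 h, 12.89 ± 0.07 at 7 h and 12.42 ± 0.15 at 24 h. Its 24 h columns read 12.45, 12.61, 12.16, 12.33 and 12.48, all below the 7 h columns, which began at 12.77. The difference at 24 h was -0.72 against 0 h (limma adjusted p = 0.000235) and -0.47 against 7 h (limma adjusted p = 0.00403). EIF4G3, a paralog of the main scaffold, was 9.88 ± 0.07 at 0 h, 9.88 ± 0.09 at 2 h, 9.62 ± 0.24 at 7 h and 9.07 ± 0.44 at 24 h. Its 24 h columns read 9.50, 9.59, 8.66, 8.68 and 8.99, so animal 1 stood above the other animals. The 24 h difference was -0.81 (limma adjusted p = 0.00539) and was not called without animal 3. EIF4G1, the main scaffold, fell by 0.54 at 24 h (limma adjusted p = 0.00358) from 10.45 ± 0.15 to 9.91 ± 0.11. EIF4B, a helper of EIF4A, fell by 0.25 and 0.37, and its second probe set fell from 10.93 ± 0.04 to 10.05 ± 0.18 and 9.86 ± 0.23. EIF4H, another helper, was not called by its brighter set, at 11.25 to 11.35 in the means of the 4 times, while its dimmer set rose from 6.84 ± 0.18 at 0 h to 7.43 ± 0.38 at 24 h (limma adjusted p = 0.0103).

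EIF4EBP2, which binds EIF4E and keeps it from EIF4G, was the member whose probe sets disagreed most. The brightest of its 5 sets on average over the arrays was 8.77 ± 0.10 at 0 h, 8.58 ± 0.14 at 2 h, 8.20 ± 0.32 at 7 h and 8.74 ± 0.22 at 24 h. It was called lower at 7 h (-0.57, limma adjusted p = 0.0207), a call lost without animal 2 or 3, and its difference at 24 h was -0.03. A pair of other sets fell far more and stayed low. The third by mean went from 9.03 ± 0.19 at 0 h to 6.12 ± 0.64 at 7 h and 5.90 ± 0.79 at 24 h. The fourth went from 8.35 ± 0.18 to 5.84 ± 0.37 and 5.92 ± 0.42. These sets followed each other over the 23 arrays (Pearson r = 0.99, a description) but followed the brightest set weakly (0.33 and 0.38). The second lay between, at 8.16 ± 0.21, 7.15 ± 0.13 and 7.59 ± 0.53, and the lowest was dim throughout (5.57 ± 0.09 at 0 h, 5.63 ± 0.13 at 24 h). The mean of the 5 sets differed by -1.22 at 24 h and was called. Whether the sets read different transcripts was not tested.

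**Figure D4:**
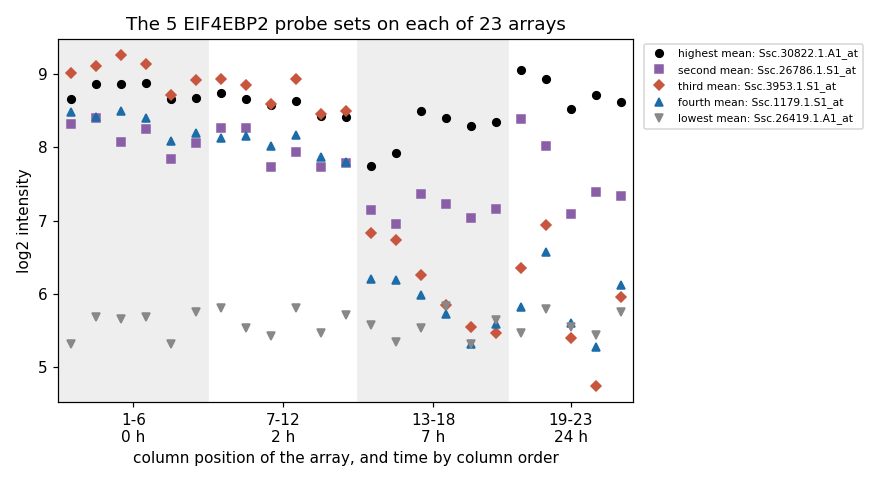
Log2 intensity of the 5 EIF4EBP2 probe sets on each of the 23 arrays in column order, named by the order of their means, with the runs of columns shaded in turn. The third and the fourth set drop from medians of 9.06 and 8.41 at 0 h to 6.06 and 5.85 at 7 h, while the set with the highest mean goes from 8.77 to 8.32.

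EIF5A, which carries the amino acid hypusine and relieves stalled ribosomes, was 11.86 ± 0.13 at 0 h, 11.77 ± 0.07 at 2 h, 11.50 ± 0.10 at 7 h and 11.14 ± 0.13 at 24 h. Columns 19 to 23 read 11.18, 11.24, 10.95, 11.04 and 11.23, below all earlier columns. It fell by 0.36 at 7 h (limma adjusted p = 0.0112, lost without animal 1) and by 0.72 at 24 h (limma adjusted p = 0.000286), and its second probe set fell at 24 h but was not called at 7 h (limma adjusted p = 0.0501). EIF6, which keeps the ribosomal subunits apart, was 10.68 ± 0.10, 10.89 ± 0.04, 10.77 ± 0.10 and 10.83 ± 0.10 over the 4 times and was not called. DHPS, which starts the hypusine modification of EIF5A, was called lower in the 7 h than the 2 h columns (-0.37) and not against 0 h.

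Of the 6 elongation genes, the same number, 5, fell at 7 h and at 24 h, where 34.0% and 28.3% of all genes fell. EEF1E1, a scaffold protein of the tRNA synthetase complex, moved most. It was 10.14 to 10.51 at 0 h (median 10.35), 10.05 to 10.40 at 2 h (median 10.23) and 8.90 to 9.69 at 7 h (median 9.42). The 24 h columns read 9.48, 9.37, 9.18, 9.23 and 9.78. The later columns did not overlap the earlier ones. The differences were -0.97 at 7 h (SE 0.18, limma adjusted p = 0.00184) and -0.85 at 24 h (limma adjusted p = 0.00446), and its second probe set fell with it. EEF1AKMT1, a methyltransferase that acts on EEF1A and is not itself a factor, fell from 9.87 ± 0.11 to 9.07 ± 0.13 at 7 h and 9.07 ± 0.15 at 24 h.

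The subunits of the EEF1 exchange complex fell less. EEF1D fell from 11.53 ± 0.02 to 11.04 ± 0.10 at 7 h and 10.93 ± 0.19 at 24 h. EEF1B2, the brightest member (mean 13.76), fell by 0.28 and 0.31, and EEF1G (mean 13.32) by 0.19 and 0.21. The 7 h calls of EEF1B2 and EEF1G were lost without any 1 animal, as was the 24 h call of EEF1G, and the 24 h call of EEF1B2 without animal 2 or 3. On the brightest probe set, EEF1A1, the carrier of aminoacyl-tRNA, was 9.29 ± 0.07, 9.26 ± 0.07, 9.23 ± 0.09 and 9.22 ± 0.09, with a 95% interval at 24 h of -0.21 to 0.07. Another of its 3 probe sets, the second by mean, fell from 7.96 ± 0.12 at 0 h to 7.62 ± 0.18 at 7 h and 7.16 ± 0.30 at 24 h (-0.80, limma adjusted p = 0.000244). EEF1A1 has many near-identical copies in mammalian genomes, so its probe sets are uncertain. Over the 16 members with several probe sets, 8 had the brightest and another set both called lower at 7 h, and 7 did at 24 h. EEF1A1 and EIF3M at 7 h, and these with EIF4EBP2 at 24 h, were called lower only by a set other than the brightest.

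Other genes of translation moved in both directions. Of 54 genes listed by their role, 28 were measured. At 7 h, 7 rose and 13 fell, where 17.5% of all genes rose and 34.0% fell. At 24 h, 11 rose and 8 fell, where 18.4% of all genes rose and 28.3% fell. The share that fell at 24 h was thus close to that of all genes. The medians were -0.23 at 7 h and -0.04 at 24 h. The 15 measured tRNA synthetases, which charge tRNAs with amino acids, had 2 higher and 10 lower at 7 h, and 3 higher and 7 lower at 24 h. WARS, for tryptophan and known to respond to interferon, rose by 3.11 at 7 h, from 9.02 ± 0.13 to 12.13 ± 0.27. HARS, for histidine, rose by 1.96 at 7 h to 10.73 ± 0.42 and was 8.32 ± 0.75 at 24 h. The largest falls were those of FARSB (-1.37 at 24 h) and FARSA (-1.25 at 7 h), the subunits of the phenylalanine enzyme, and VARS, for valine (-1.22 at 24 h).

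Of 7 listed genes of the stress response downstream of EIF2, 5 were measured, and all 5 (ATF4, DDIT3, ASNS, PPP1R15A and PPP1R15B) rose at 24 h, where 18.4% of all genes rose. PPP1R15A and PPP1R15B, subunits of the EIF2 phosphatase of which the second is known as constitutive, rose by 0.79 and 0.29, and the arrays of PPP1R15B overlapped the 0 h columns. DDIT3 (CHOP) rose by 2.84 at 24 h (SE 0.15, limma adjusted p = 4.29e-06), from 9.29 ± 0.11 to 12.13 ± 0.18, after a fall to 8.59 ± 0.37 at 2 h. ATF4, the transcription factor upstream of it, rose from 11.73 ± 0.40 to 13.07 ± 0.17, and ASNS, a target of ATF4, from 8.90 ± 0.40 to 10.61 ± 0.53. At 7 h, 2 of the 5 were higher and 1 lower than at 0 h, where 17.5% of all genes rose and 34.0% fell. No link of these genes to EIF2AK2 was tested. For the poly(A)-binding group 2 of 3 rose at 24 h and none fell. MKNK1, a kinase that phosphorylates EIF4E and the only kinase of the list measured, fell by 1.10 at 7 h and rose by 1.16 from there to 24 h.

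The arrays bore macrophage markers throughout. The summed intensity of 7 measured of 10 listed markers lay between 14.35 and 14.60 on the log2 scale in all runs of columns. CTSD and AIF1 (means 13.60 and 12.87) made up most of that sum, and ITGAM was dim (4.39 to 5.03). Single markers moved: against 0 h, 2 were called higher and 2 lower at 7 h, and 4 higher and 2 lower at 24 h. Over all genes, 17.5% were called higher and 34.0% lower at 7 h, and 18.4% and 28.3% at 24 h. CD14 was 7.13 to 8.59 at 0 h and 9.22 to 10.36 at 2 h. CD163 was 7.85 to 9.36 at 7 h and 9.86 to 11.36 at 24 h. Of 6 listed genes of the LPS response, 5 were called higher at 2 h than at 0 h, where 5.17% of all genes were. TNF was 5.42 to 6.10 in the 0 h columns and 12.35 to 12.56 in the 2 h columns. IL6 overlapped, at 3.97 to 5.64 and 4.26 to 6.32. Some markers of other cells also differed between the runs of columns, and others did not. The 5 measured of 7 T and NK cell markers summed to 6.87 to 7.13 at 0 h, 7.13 to 7.66 at 2 h, 7.95 to 9.14 at 7 h and 7.41 to 10.54 at 24 h. CD2 made up most of this, whereas the defining CD3E and CD3G stayed between 4.13 and 4.99 on every array. The 3 measured of 6 granulocyte markers summed to 8.06 to 9.08 at 0 h, 7.96 to 9.05 at 2 h, 7.80 to 9.39 at 7 h and 8.98 to 10.23 at 24 h, and ELANE was lowest at 24 h (5.05 to 5.99). The 5 measured of 6 stromal markers summed to 8.77 to 10.91, 8.79 to 10.73, 8.88 to 10.50 and 8.58 to 10.17 at 0, 2, 7 and 24 h. The 2 measured of 6 B and plasma cell markers summed to 8.19 to 9.27, 7.99 to 9.0, 8.0 to 8.89 and 7.26 to 8.40. The part of these cells in the members' changes was not tested. In such bulk samples, fewer cells of a type and less RNA per cell cannot be told apart.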

How the data were processed

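Per the submitters' processing notes, affy and RMA (versions not given in the sources used here) made the authors' probe set intensities. The deposited intensity values are on a linear scale and were converted to log2 here. Array medians ran from 69.49 to 73.86 intensity units, and the number of arrays limits the precision. Of 24123 probe sets, 124 controls were left out. Of the rest, 10069 carry 1 gene symbol in the platform annotation, 198 carry several and 13732 have none listed. Symbols were checked through gene identifiers in the RefSeq gene table, and 0 changed.

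Neighbouring columns were averaged to 12 means, and time and animal were fitted with limma 3.58.1 (R 4.3.3), with 6 residual degrees of freedom. The Benjamini-Hochberg adjustment ran over 23999 probe sets, with no filter on dim ones. P-values are conditional on the inferred column order. The animal term rests on the series description, which says that the same pigs gave every time. Deviations of the same animal correlated at 0.34 to 0.73 by column order, and at 0.27 to 0.97 with times and pigs as labelled. The column order was inferred from these same arrays, so its correlations cannot support the animal term. SDs are over the 3 animals, and no batch was named in the labels. The design had foreseen log2 values.

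Members and lists were chosen with earlier results of these data known. Full values were given for the 8 largest called rises and falls against 0 h, the 3 largest in each direction for later steps, the 3 brightest and 3 dimmest members, members whose probe sets disagree in sign, and fixed genes (EIF2AK2, EIF4E, EIF2S1, EIF5A, EIF6, EEF1A1). Of other translation genes, the 3 largest in each direction were named, and ATF4, ASNS, PPP1R15A, PPP1R15B, MKNK1, DHPS and the markers were named beside their counts after their values were seen. Alternatives were no animal term, the 23 arrays with duplicates as a random block, each animal or column 23 left out, a further quantile normalization, a mean log2 of at least 6, and the mean of a gene's probe sets. The fit was tested on simulated data.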

Additional observations from a re-analysis of the deposited data

Results flagged for a closer look

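In the 2 h columns, EIF3B was lowest on column 11 at 9.101, where the others ran from 9.202 to 9.261, and EIF4G2 was lowest on column 8 at 13.002, where the others ran from 13.058 to 13.090. Both gaps were large for the width of the group. They were 2 of 108 groups examined, and chance flags about 5.4.

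The effect against the 0 h columns differed between 2 h and 7 h, by the limma test of that difference, for 19 members, and between 7 h and 24 h for 16. These are the comparisons of 7 h against 2 h and 24 h against 7 h given above, not further tests. Of all 6765 genes, 2533 and 2313 were called in them. Only members with the 3 largest differences in each direction are named. Between 2 h and 7 h these were EEF1E1 (-0.86), EIF2AK2 (1.35), EIF2B3 (-1.19) and EIF4A1 (-0.89). Between 7 h and 24 h they were EIF2B1 (0.55), EIF2B3 (0.62), EIF3L (-0.51), EIF4A2 (1.28), EIF4G2 (-0.47) and EIF4G3 (-0.55). For these genes, adjusted p-values from limma ran from 0.0001 for EIF4A2 to 0.0449 for EIF4G3. Each of these genes moved the same way in 3 of 3 animals, which being called favours.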

How the results depend on the processing

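The calls rest on the column order. With times and pigs as labelled, 0 members were called in every comparison and under every alternative run on that fit, and 29 differences of named members had the opposite sign. For 7 h and 24 h against 0 h the labelled values were EEF1B2 0.03 and 0.06, EEF1E1 0.24 and 0.15, EEF1G 0.01 and 0.01, EIF1AX 0.08 and 0.02, EIF2AK2 -0.04 and -0.12, EIF2B3 0.33 and 0.15, EIF2B4 0.15 and 0.21, EIF4A1 0.16 and 0.13, EIF4E 0.10 and 0.11, EIF5A 0.03 and 0.07, and EIF5B 0.09 and 0.07. At 7 h alone they were EIF2B1 0.15, EIF3B 0.05, EIF4A2 0.32 and EIF4EBP2 0.29, and at 24 h alone EIF2D 0.01, EIF4G2 0.02 and EIF4G3 0.25. Within the column order, the replicate block was the animal term. Without it, 24 h against 7 h gave 10 members in place of 16, the only one of its member counts to move by over 1.5 times, and 2 h against 0 h gave 637 genes in place of 972. Without column 23 it also gave 10. With the 23 arrays unaveraged, 2 h against 0 h gave 7 members in place of 2, and 1647 genes. Leaving out 1 animal gave 0 to 1 members at 2 h, 18 to 20 at 7 h and 18 to 21 at 24 h against 0 h, 15 to 17 for 7 h against 2 h, 7 to 9 for 24 h against 7 h, and 23 to 26 over all times. These fits have fewer samples. Counts of all genes moved by over 1.5 times without animal 2 or 3 at 2 h (365 and 292, from 972), without animal 2 at 24 h (1965, from 3163), without animal 3 for 7 h against 2 h (1375, from 2533), and without animal 1 or 3 for 24 h against 7 h (1321 and 1193, from 2313). Of 81 differences of named members, 8 lost their call without the animal term, and 11, 13 and 15 without animals 1, 2 and 3. The mean of both EIF3D probe sets turned its 24 h difference to 0.06, as that mean takes in a set of opposite sign. The other alternatives turned no named member. Signal over background was not measured, so dim probe sets have no stated floor.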
